A study of Danio rerio with 6 samples.

Results

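The genes linked to mucous cells and their epithelia, 8 of the 30713 named genes in the count table, were followed in whole zebrafish larvae at 7 dpf. They were *agr2*, *ehf*, *elf3*, *muc5.1*, *muc5.2*, *muc5.3*, *grhl1* and *foxa3*, and all 8 passed the filter on low counts that left 21617 genes for testing. The genes were chosen from the EAE against control comparison of these same pools, so their differences between the groups are given as a description, without p-values, and support nothing by themselves. RNA-Seq was performed on 6 pools of WT larvae of the AB strain, each pool of 30 homogenized whole animals. Larvae of the 3 pools with embryonic alcohol exposure (EAE) were held in 1% EtOH between 12 hpf and 5 dpf, and those of the 3 control pools in 0% EtOH. From then until 7 dpf both groups were in water without EtOH and were fed paramecia and artemia. The sources describe the larvae both as siblings of mixed sizes and as combined clutches, placed in 3 tubes per group. The paper also speaks of 3 independent groups of larvae, and whether the pools were separate clutches is not settled. P-values therefore judge the group difference against the spread between these pools, which may be partly technical. The lists of other genes compared below were also chosen with earlier results of these data known. The p-values printed for their genes are therefore not independent tests.

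Mucous cells, called goblet cells in the intestine, fill secretory granules with mucins, large proteins covered with O-linked sugar chains that swell into a protective gel. The gel-forming mucins are folded and cross-linked in the ER, where the disulfide isomerase Agr2 is needed for their production in mice and for goblet cell maturation in zebrafish. Sugar chains are then added in the Golgi apparatus, beginning with the GALNT family of enzymes. EHF and ELF3 are ETS transcription factors of epithelia, GRHL1 belongs to the Grainyhead factors that control epithelial barriers, and FoxA3 is a factor of the endoderm that also promotes goblet cell formation in the mouse airway. Apart from the gel-forming mucins, these genes are also active in epithelial cells that make little or no mucus, so the link to mucous cells rests on the genes and not on isolated cells. Because whole larvae were homogenized, more mucous cells and more RNA per cell cannot be told apart, and neither can skin, pharynx and gut as the site of expression.

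Counts on named genes totalled 17264955 to 23638705 per pool. Levels are given as CPM, counts scaled to the size of each library with edgeR's TMM normalization, and a log2 fold change is EAE over control with its standard error (SE). CPM values are not corrected for gene length, so each gene is compared only with itself. Over all tested genes the median log2 fold change was 0.0008, and 14.2% of genes were called, that is, had an adjusted p-value under 0.05 in edgeR's quasi-likelihood test. Genes higher in EAE larvae made up 7.22% of those tested and lower ones 6.95%. Of the 8 mucous cell genes, 6 were called, all as higher, and the mean level of all 8 was higher in EAE pools. Their median log2 fold change was 0.51. These numbers follow from how the genes were chosen. The summed level of the 8 genes ranged from 349 to 398 CPM in control pools and from 498 to 590 CPM in EAE pools, and it consists mainly of *muc5.1*.

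**Figure D1:**
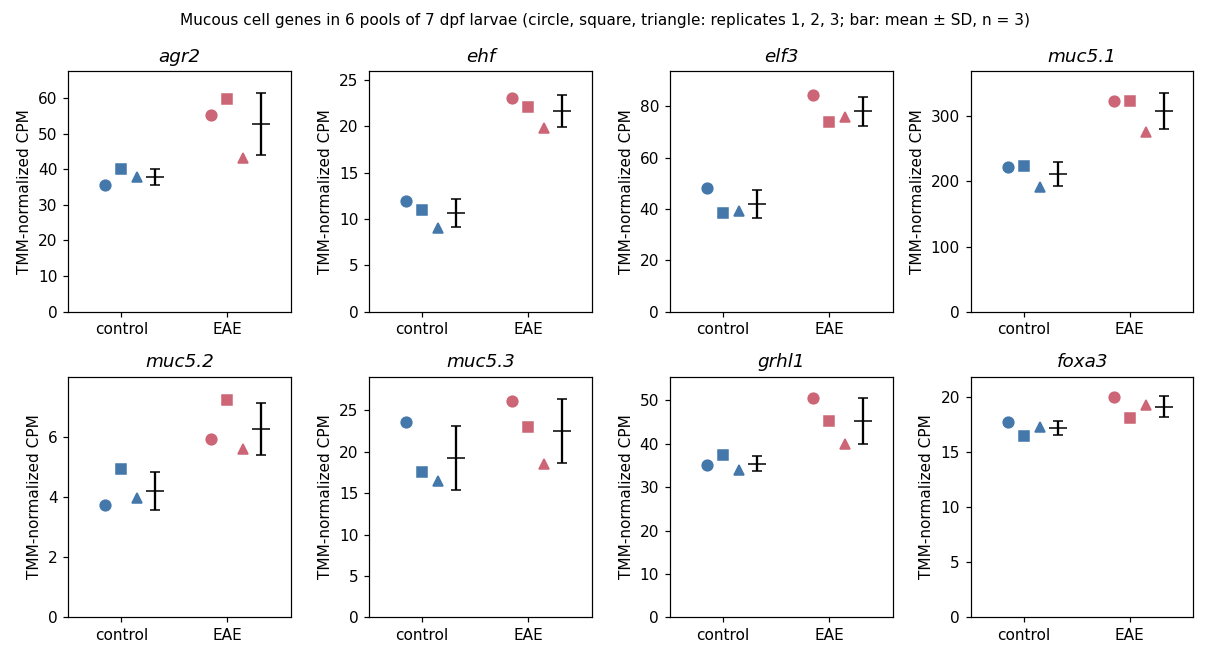
Levels of the 8 mucous cell genes in TMM-normalized CPM (vertical axes, starting at 0) in the 3 control and 3 EAE pools, with a marker for each replicate and bars for the mean ± SD (n = 3). The EAE pools lie above all control pools for 7 genes, and the groups overlap for *muc5.3*.

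The 2 ETS factor genes differed most. The gene *ehf* was at 11.9, 11.01 and 9.03 CPM in control replicates 1, 2 and 3 and at 23.1, 22.1 and 19.8 CPM in the EAE replicates. The groups were far apart, and the lowest EAE pool was 1.66-fold above the highest control pool. Its log2 fold change was 1.03 (SE 0.10), a 2.04-fold difference, and 80 of the genes called as higher had a larger one. The gene *elf3* was at 48.3, 38.6 and 39.0 CPM in control pools and at 84.6, 73.8 and 75.9 CPM in EAE pools. Replicate 1 was the highest pool in both groups, and the groups did not overlap. The log2 fold change of *elf3* was 0.89 (SE 0.08), a 1.86-fold difference.

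The ER disulfide isomerase gene *agr2* was at 35.5, 40.1 and 37.9 CPM in control pools and at 55.3, 59.7 and 43.1 CPM in EAE pools. EAE replicate 3 stood below the other EAE pools, 1.07-fold above the highest control pool. The control mean of *agr2* was 37.9 ± 2.27 CPM (SD, n = 3) and the EAE mean 52.7 ± 8.62 CPM (SD, n = 3). The gene had a log2 fold change of 0.48 (SE 0.09), a 1.40-fold difference. Without EAE replicate 3 the log2 fold change of *agr2* was 0.60, and over the alternative fits it ranged from 0.38 to 0.60.

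The gel-forming mucin genes of the *muc5* group were *muc5.1*, *muc5.2* and *muc5.3*. The gene *muc5.1* was at 222, 223 and 191 CPM in control pools and at 324, 323 and 276 CPM in EAE pools. Replicate 3 was the lowest pool of *muc5.1* in both groups, but the groups were separate, with a log2 fold change of 0.54 (SE 0.07), a 1.45-fold difference. The gene *muc5.2* rests on few reads, with 74, 85 and 82 counts in control pools and 138, 146 and 111 counts in EAE pools. Its levels of 3.73, 4.92 and 3.98 CPM in controls and 5.93, 7.22 and 5.59 CPM in EAE larvae did not overlap. The log2 fold change of *muc5.2* was 0.57 (SE 0.14), and it fell to 0.50 without control replicate 1 and to 0.46 without EAE replicate 2, where the gene was no longer called. For *muc5.3*, control pools were at 23.6, 17.6 and 16.5 CPM and EAE pools at 26.1, 23.0 and 18.5 CPM. Control replicate 1 lay above EAE replicates 2 and 3, and the log2 fold change of *muc5.3* was 0.23 (SE 0.12), which was not called. It was 0.41 without control replicate 1 and 0.35 without EAE replicate 3, and was called in both cases. In the RefSeq annotation of assembly GRCz12tu, *muc5.1* and *muc5.2* are separated by 1 other gene. These related genes could share reads in the authors' counting, whose treatment of reads with several alignments is not given in the sources used here.

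The Grainyhead gene *grhl1* was at 35.04, 37.4 and 34.0 CPM in control pools and at 50.6, 45.2 and 40.1 CPM in EAE pools. The groups were separate by a narrow margin, with EAE replicate 3 1.07-fold above the highest control pool. Its log2 fold change was 0.36 (SE 0.07). The endodermal factor gene *foxa3* was at 17.7, 16.5 and 17.3 CPM in control pools and at 20.01, 18.2 and 19.3 CPM in EAE pools. The lowest EAE pool was only 1.02-fold above the highest control pool, and the log2 fold change of *foxa3*, 0.16 (SE 0.07), was not called. The groups did not overlap for 7 of the 8 genes, where the EAE pools were all above the control pools for 16.0% of tested genes.

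The genes also varied within the groups. EAE replicate 3 was the lowest EAE pool for 6 of the 8 genes and EAE replicate 1 the highest for 6. Deviations of log2 CPM from the group mean, which do not use the difference between the groups, were compared for the 28 pairs of genes over the 6 pools. The median Pearson r was 0.40, and 22 of the 28 were above 0. The highest was 0.91 for *ehf* and *muc5.1*, and *agr2* had an r of 0.76 with *muc5.2* and 0.73 with *grhl1*. The lowest was -0.88 for *muc5.2* and *foxa3*. All genes of a pool share its library, and with 6 pools in 2 groups these values are a description only. The same counts and correlations were not computed for other genes, so there is no background to set them against.

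The nearest patterns to *agr2* and *ehf* were sought among 15062 other genes with a mean of at least 5 CPM. The measure was the root mean square difference of log2 CPM over the 6 pools after subtraction of the control mean. The nearest to *agr2* was *mybl2b*, a cell cycle transcription factor gene, at a difference of 0.051 (Pearson r 0.98, n = 6 pools). It was followed by CABZ01058261.1, si:rp71-77l1.1, si:ch211-66k16.27 and the S100 calcium-binding protein gene *s100u*, at 0.064 to 0.080. The 5 genes nearest to *ehf* included *grhl3* in place 2, at 0.091 (Pearson r 0.99, n = 6 pools), and *elf3* in place 5, at 0.14. The others were zgc:113625, si:ch211-207n23.2 and CABZ01059412.1. The measure includes the difference between the groups, and the genes were not tested for any other relation. They were picked as the closest of many candidates, so a high r follows from the choice.

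Of the genes that lie next to the 8 on the chromosome by the GRCz12tu annotation, 9 were tested. None was called with edgeR's quasi-likelihood test, where 14.2% of all tested genes were called, or with DESeq2. In the edgeR test 6 of the 9 had an unadjusted p-value under 0.05. By the rank of *foxa3*, at least 6214 of the 21617 tested genes had one as well. Those beside *agr2*, *tspan13b* and *ppp1r10*, had log2 fold changes of -0.23 (SE 0.08) and -0.14 (SE 0.05). The others went in both directions. Values were -0.19 (SE 0.09) for *ric8a* beside *ehf* and 0.37 (SE 0.22) for *fanci* beside *muc5.2*. Beside *elf3*, *apobec2a* was at 0.15 (SE 0.09) and *gpr37l1a* at -0.40 (SE 0.14). Beside *grhl1*, *klf11b* was at 0.44 (SE 0.14) and *ywhaqb* at -0.05 (SE 0.05). The gene *irf2bp1* beside *foxa3* was at 0.14 (SE 0.05). No neighbour of *muc5.1* or *muc5.3* was tested.

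Mucin genes outside the 8 were called in both directions. Of 5 further genes with *muc* symbols, 4 were tested, 1 was called as higher and 1 as lower, where 14.2% of all genes were called. The gel-forming mucin gene *muc2.2*, related to the main mucin of mammalian intestinal goblet cells, was at 0.81, 1.56 and 0.92 CPM in control pools and at 4.68, 8.36 and 2.42 CPM in EAE pools. All EAE pools were above all control pools, but EAE replicates 2 and 3 differed by more than 3-fold from each other. The gene *muc2.2* rose by a log2 fold change of 2.25 (SE 0.37, edgeR quasi-likelihood adjusted p = 5.3e-04), and its control level rests on 16, 27 and 19 counts. It was called in all 11 alternative fits. The transmembrane mucin gene *muc13b* was at 161, 162 and 176 CPM in control pools and at 152, 117 and 139.6 CPM in EAE pools. Every EAE pool of *muc13b* was below every control pool, and it fell with a log2 fold change of -0.29 (SE 0.07, edgeR quasi-likelihood adjusted p = 0.013). The fall was -0.24 without control replicate 3 and -0.19 without EAE replicate 2, and it was not called in either case (edgeR quasi-likelihood adjusted p = 0.069 and 0.050). Neither *muc13a* nor *muc5f* was called, with log2 fold changes of 0.21 (SE 0.08) and 0.10 (SE 0.19), and *muc5a*, at 2 to 14 counts per pool, was not tested.

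The make-up of the mucin reads differed between the groups, as a description that includes genes chosen from this comparison. Of all reads on the 8 *muc* genes, *muc5.1* held 51.1%, 51.3% and 46.7% in control pools and 59.9%, 64.2% and 59.18% in EAE pools. The share of *muc13b* was 37.2%, 37.3% and 43.0% in control pools and 28.1%, 23.2% and 29.9% in EAE pools. Each mucin keeps its own length in every pool, so these shares can be compared between pools but not between mucins. Shares of 1 total are not independent, and more *muc5.1* reads lower the share of *muc13b* by themselves. The share of *muc2.2* was 0.19% to 0.36% in control and 0.52% to 1.66% in EAE pools.

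**Figure D2:**
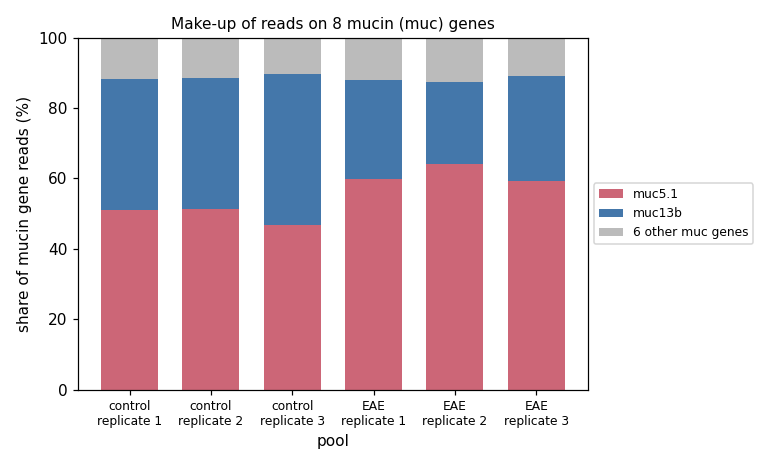
Share of the reads on 8 *muc* genes (vertical axis, percent) that fell on *muc5.1*, on *muc13b* and on the other 6 genes, in each pool. The *muc5.1* share is 46.7% to 51.3% in the control pools and 59.18% to 64.2% in the EAE pools.

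A list of enzymes that build O-linked sugar chains, with related enzymes of the same symbols, held calls in both directions in the main analysis. The list is therefore not limited to the sugar chains of mucins. Of 54 genes taken by symbol (*galnt*, *c1galt*, *gcnt*, *b3gnt*, *st3gal* and *st6galnac*), 50 were tested, 4 were called as higher and 4 as lower, or 16.0% against 14.2% of all genes, and the median log2 fold change was -0.03. The 4 higher genes were *galnt12*, *galnt6*, *galnt7* and *c1galt1c1*. The GALNT enzymes attach the first sugar to serine and threonine, and *c1galt1c1* encodes the chaperone of the enzyme that adds the next one. The gene *galnt12* was at 5.90, 5.098 and 4.90 CPM in control pools and at 8.68, 7.97 and 7.70 CPM in EAE pools, and rose with a log2 fold change of 0.62 (SE 0.12, edgeR quasi-likelihood adjusted p = 0.0019). The gene *galnt6* was at 34.1, 34.0 and 33.2 CPM in control pools and at 49.0, 45.2 and 44.9 CPM in EAE pools. The controls of *galnt6* were almost level, and its log2 fold change was 0.46 (SE 0.06, edgeR quasi-likelihood adjusted p = 4.7e-05). The gene *galnt7*, for an enzyme that acts on peptides already carrying such a sugar at another position, was at 91.5, 86.1 and 82.7 CPM in control pools and at 121, 116 and 118 CPM in EAE pools. It rose by 0.45 on the log2 scale (SE 0.05, edgeR quasi-likelihood adjusted p = 1.5e-05). The gene *c1galt1c1* rose by 0.28 on that scale (SE 0.06, edgeR quasi-likelihood adjusted p = 0.0051). These 4 genes were called in all 11 alternative fits, DESeq2 included.

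The lower genes of this list were *galnt17*, *galnt14*, *galnt9* and *st3gal2*, which adds a terminal sialic acid. The gene *galnt17* was at 11.4, 12.5 and 12.4 CPM in control pools and at 9.75, 9.95 and 8.46 CPM in EAE pools, a log2 fold change of -0.36 (SE 0.09, edgeR quasi-likelihood adjusted p = 0.015). Its groups did not overlap, but the call was lost with DESeq2 and without control replicate 2, control replicate 3 or EAE replicate 3. The other 3 had log2 fold changes of -0.26, -0.25 and -0.22, and DESeq2 called none of the 4 lower genes. The call of *galnt14* was also lost without any 1 control pool or EAE replicate 2 or 3, that of *galnt9* without replicate 1 or 2 of either group, and that of *st3gal2* without any 1 control pool or EAE replicate 1 or 2. With the replicate number as a block, *galnt9* and *st3gal2* were not called either. The genes *c1galt1c1*, *galnt14*, *galnt9* and *st3gal2* were named after their values were seen. The 18 *galnt* genes alone, a list formed after the data were seen, held 3 higher and 3 lower calls. That is 33.3% against 14.2% of all genes, with a median log2 fold change of -0.12, and DESeq2 called 3 of the 18.

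**Figure D3:**
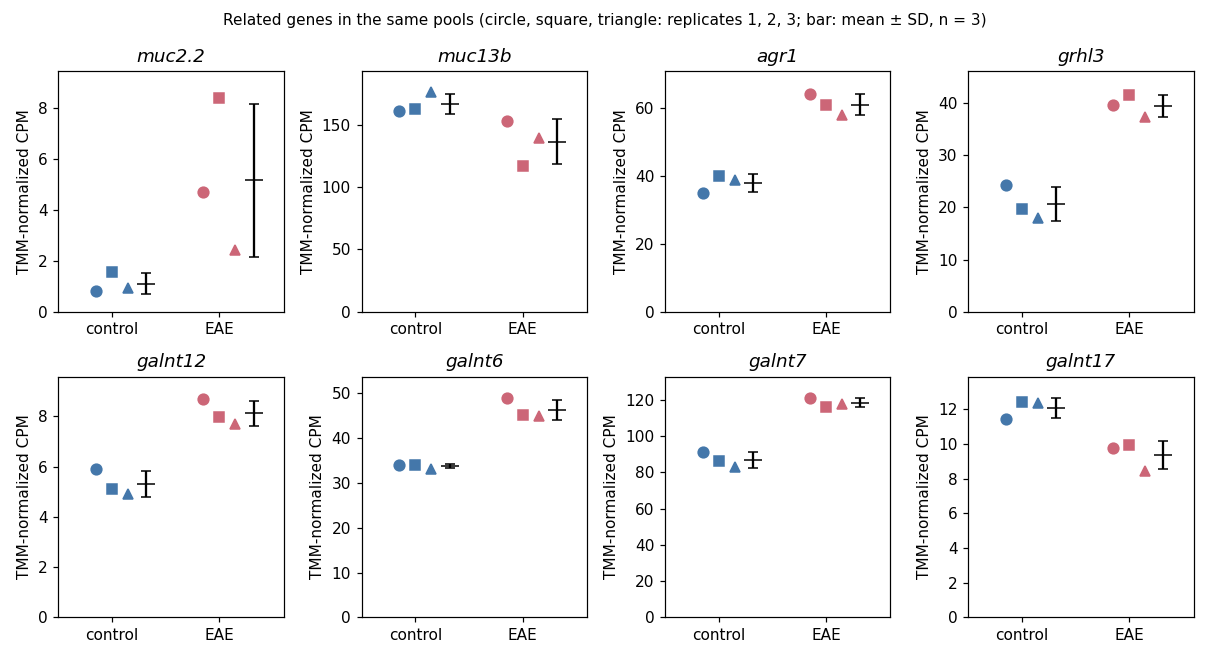
Levels in TMM-normalized CPM (vertical axes, starting at 0) of 8 related genes in the same pools, with a marker for each replicate and bars for the mean ± SD (n = 3). The EAE pools lie above the control pools for *muc2.2*, *agr1*, *grhl3*, *galnt12*, *galnt6* and *galnt7*, and below them for *muc13b* and *galnt17*.

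The paralog of *agr2* was among the genes for mucus secretion and the secretory lineage. Of 37 such genes listed, 34 were found in the table and 33 tested, with 3 called as higher and 1 as lower, 12.1% against 14.2% of all genes, and a median log2 fold change of 0.01. The gene *agr1*, of the same disulfide isomerase family as *agr2*, was at 34.99, 39.85 and 38.8 CPM in control pools and at 64.3, 61.1 and 57.8 CPM in EAE pools. It rose with a log2 fold change of 0.69 (SE 0.06, edgeR quasi-likelihood adjusted p = 9.3e-07) and was called in all 11 alternative fits. The gene *vamp8*, for a membrane fusion protein of secretory granules, was at 38.7, 39.5 and 39.4 CPM in control pools and at 50.7, 45.5 and 44.7 CPM in EAE pools. Its rise was smaller, with a log2 fold change of 0.26 (SE 0.06, edgeR quasi-likelihood adjusted p = 0.0073). The intelectin genes, for lectins that bind microbial sugars, went in opposite directions, with log2 fold changes of 0.67 (SE 0.19) for *itln3* and -0.52 (SE 0.17) for *itln2* (edgeR quasi-likelihood adjusted p = 0.024 and 0.047). Neither call was kept with DESeq2. The value of *itln3* was 0.31 without EAE replicate 1, whose level of 13.0 CPM was above the 6.83 and 7.55 CPM of the other EAE pools, and that of *itln2* was -0.28 without EAE replicate 3. The call of *itln3* was also lost without control replicate 1 or 2, and that of *itln2* without any 1 control pool or without EAE replicate 2.

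The regulators of secretory cell fate *atoh1a*, *atoh1b* and *klf4* were not called. The genes *atoh1a* and *atoh1b*, whose mouse counterpart commits intestinal cells to the secretory lineage, were near 1 CPM in both groups, with log2 fold changes of -0.37 (SE 0.29) and -0.28 (SE 0.28). The goblet cell factor gene *klf4* had a log2 fold change of -0.31 (SE 0.20) from a control mean of 2.47 CPM. Other factor genes of the list, with more reads, lay above 0 and were not called either. Values were 0.14 (SE 0.05) for *klf5a*, 0.15 (SE 0.07) for *klf5l* and 0.25 (SE 0.11) for *creb3l1*. The gene *gfi1ab* was at -0.09 (SE 0.25), so the regulators had no common direction. The unfolded protein response gene *xbp1*, needed for secretory cells, had one of 0.14 (SE 0.06), and *ern2*, a relative of the ER stress sensor that is found in mucous epithelia of mammals, one of 0.16 (SE 0.09). The chloride channel gene *cftr*, for the fluid that hydrates mucus, had a log2 fold change of -0.10 (SE 0.11). The genes *clca1* and *slc12a2* had values of -0.17 (SE 0.06) and -0.12 (SE 0.05). None of *xbp1*, *ern2*, *cftr*, *clca1* and *slc12a2* was called. Of the 33 tested genes of the list, 18 had log2 fold changes above 0 and 15 below. The estimates for *atoh1a*, *atoh1b* and *klf4* are imprecise at these levels, and a missed threshold does not show that they were unchanged.

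Relatives of the transcription factor genes, with the 3 families pooled, were called about as often as other genes. The *grhl* genes among them, a list formed after the data were seen, had 2 of 3 called, both as higher. Of 32 ETS, Grainyhead and FoxA family genes other than the members, all were tested, 3 were called as higher and 1 as lower, 12.5% against 14.2% of all genes, and their median log2 fold change was 0.08. The gene *grhl3*, a Grainyhead factor of the skin barrier, was at 24.3, 19.8 and 18.0 CPM in control pools and at 39.6, 41.5 and 37.3 CPM in EAE pools. Its groups were well separated, with a log2 fold change of 0.93 (SE 0.09, edgeR quasi-likelihood adjusted p = 1.2e-06). The gene *grhl2a* was at 16.5, 15.2 and 14.5 CPM in control pools and at 20.2, 20.8 and 17.0 CPM in EAE pools, a log2 fold change of 0.33 (SE 0.09, edgeR quasi-likelihood adjusted p = 0.017). Its call was lost without control replicate 2 or 3 and without EAE replicate 1 or 2 (edgeR quasi-likelihood adjusted p up to 0.079). The gene *grhl2b* was not called, at 0.10 (SE 0.11).

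Among the ETS factor genes other than *ehf* and *elf3*, *etv7* and *etv1* were called. The gene *etv7*, an ETS repressor, was at 2.52, 2.78 and 2.33 CPM in control pools, from only 50, 48 and 48 counts. It was at 4.21, 4.55 and 4.93 CPM in EAE pools, and rose with a log2 fold change of 0.84 (SE 0.15, edgeR quasi-likelihood adjusted p = 0.0014). The gene *etv1* fell with one of -0.29 (SE 0.09, edgeR quasi-likelihood adjusted p = 0.042), and this call was kept in 4 of 11 alternative fits. It was lost with DESeq2, with the replicate block, without control replicate 1, 2 or 3 and without EAE replicate 1 or 2. Of the 32 family genes 28 were not called, and the 12.5% called were near the 14.2% of all genes. The ETS gene *spi2*, at 4 to 10 counts in control pools and 13 to 17 in EAE pools, was not called. Its log2 fold change of 1.06 (SE 0.39) was above that of *ehf*. The FoxA genes *foxa1*, *foxa2* and *foxa* were not called, as *foxa3* was not, with values of 0.07 (SE 0.09), 0.08 (SE 0.12) and -0.15 (SE 0.21).

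Markers of cell types that could surround mucous cells were compared in the same fit. The share called over all genes was not matched for abundance, so it is an uneven background for lists of abundant markers. The SE of a log2 fold change had a median of 0.096 over all tested genes and was 0.05 to 0.07 for the epidermis genes. In the epidermis list 17 genes were tested, 7 were called as higher and 3 as lower, or 58.8% against 14.2% of all genes, and the median log2 fold change was 0.07. The count of 10 was 5 without control replicate 1 or 3 and up to 9 without another pool. The list held 7 calls with the replicate number as a block and 4 at an adjusted p-value under 0.01. Its most abundant members, the keratin genes *krt4* and *krt5*, had log2 fold changes of -0.07 (SE 0.06) and -0.22 (SE 0.07), and *krt5* was called as lower. The call of *krt5* was lost with the replicate block and without any 1 control pool or EAE replicate 2 or 3. The other lower genes were *krt15*, at -0.39 (SE 0.06) and called in all 11 alternative fits, and *krt17*, at -0.22 (SE 0.07), whose call was lost in the same fits as that of *krt5*. The higher genes were the claudin gene *cldne*, at 0.48 (SE 0.06), *epcam*, at 0.28 (SE 0.05), and *evpla*, *cyt1*, *icn2*, *icn* and *cdh1*, at 0.19 to 0.27. The summed level of the list was 13922 to 15017 CPM in control pools and 12724 to 14031 CPM in EAE pools, which overlapped. It consists mainly of *krt4*, *krt5* and *krt17*, at control means of 4303, 4008 and 3201 CPM, so it says little about the other genes. Except for *krt5*, the called genes were named after their values were seen. Of the 7 higher genes, *cldne*, *epcam* and *evpla* were called in all 11 alternative fits, and each of the others lost its call without at least 1 pool. The call of *icn* was also lost with the replicate block. The part of epidermal cells in the values of *ehf*, *elf3* and *grhl1* was not tested.

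Over all tested genes 14.2% were called, and the enterocyte, ionocyte and exocrine pancreas lists, each with 1 call among 10 or 11 genes, were near that share. Of 10 enterocyte genes, none was called as higher and *anpepb* as lower, and the most abundant, *apoa1a* and *anpepb*, had log2 fold changes of 0.04 (SE 0.06) and -0.20 (SE 0.06). The summed level of enterocyte genes was 3201 to 3476 CPM in control pools and 3129.8 to 3422 CPM in EAE pools. Of 8 enteroendocrine genes, *neurod1* and *pax6b*, both also active in neurons and islet cells, were called as lower, at -0.35 (SE 0.06) and -0.29 (SE 0.06), and the summed level was 166 to 169 CPM in control and 128 to 142 CPM in EAE pools. These calls are 25% of the 8 genes, against 14.2% of all genes, and 1 of the 8 was called as higher without control replicate 3. The summed level consists mainly of *neurod1* and *pax6b*, at control means of 85.1 and 57.4 CPM. The gene *pyyb*, named after its values were seen, was the 1 gene of 8 with a higher mean in EAE pools. Its log2 fold change was 0.35 (SE 0.14), which was not called. For ionocytes, 1 of 10 genes was called, *foxi3a* as lower, and the most abundant, *atp1a1a.2* and *ca2*, had log2 fold changes of -0.01 (SE 0.05) and 0.14 (SE 0.05). For exocrine pancreas, 1 of 11 genes was called, *cpa1* as lower, and *ctrb1* and *prss59.2* were both at 0.03 (SE 0.08 and 0.07). The summed level was 1209 to 1254 CPM in control and 1176 to 1278 CPM in EAE pools for ionocytes, and 16740 to 19943 CPM and 16419 to 18866 CPM for exocrine pancreas. The call of *anpepb* was lost without any 1 control pool or EAE replicate 2 or 3, and with the replicate number as a block. That of *foxi3a* was lost without control replicate 1 or 2 or EAE replicate 2 or 3. That of *cpa1* was lost without replicate 2 of either group, with DESeq2 and with the replicate number as a block.

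Neutrophil and liver genes held calls only as higher, in 3 of 5 and 4 of 9 genes, where 7.22% of all genes were called as higher. Of 5 neutrophil genes 3 were called as higher. Their median log2 fold change was 0.42, and their summed level was 191 to 223 CPM in control pools and 242 to 277 CPM in EAE pools. The most abundant, *mpx* and *lect2l*, had log2 fold changes of 0.11 (SE 0.09) and 0.69 (SE 0.06). Of 9 liver genes 4 were called as higher, with a median of 0.15, led in abundance by *tfa* and *apoa2*, at 0.20 (SE 0.06) and 0.20 (SE 0.05). The calls of both were lost with the replicate block and without control replicate 1 or 3 or EAE replicate 1. That of *tfa* was also lost without EAE replicate 3. The other 2 called genes, named after their values were seen, were steadier. The gene *fabp10a*, at 0.32 (SE 0.05), was called in all 11 alternative fits and *cp*, at 0.30 (SE 0.07), in 10. The count of 4 liver genes was 1 without control replicate 1 and 2 without control replicate 3 or EAE replicate 1. It was also 2 with the replicate block and 2 at an adjusted p-value under 0.01 for these genes. Their summed level was 3763 to 4080 CPM in control and 4009 to 4532 CPM in EAE pools. None of 5 muscle genes was called by edgeR's quasi-likelihood test, where 14.2% of all genes were, or by DESeq2. None had an unadjusted p-value under 0.05, with *actc1b* and *mylpfa* at -0.005 (SE 0.07) and -0.05 (SE 0.07). Of 6 neuron genes 5 were called as lower, where 6.95% of all genes were, but 4 with the replicate block and 3 without any 1 control pool or EAE replicate 1. The most abundant, *stmn1b* and *snap25a*, had log2 fold changes of -0.26 (SE 0.05) and -0.24 (SE 0.05). Both were called in all 11 alternative fits, as was *syt1a*, named after its values were seen. The summed level of neuron genes was 1640 to 1650 CPM in control and 1315 to 1470.1 CPM in EAE pools. No tested marker gene was at 0 in any pool. Whether other cell types had a part in the level of *agr2* or the mucin genes was not tested.

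**Figure D4:**
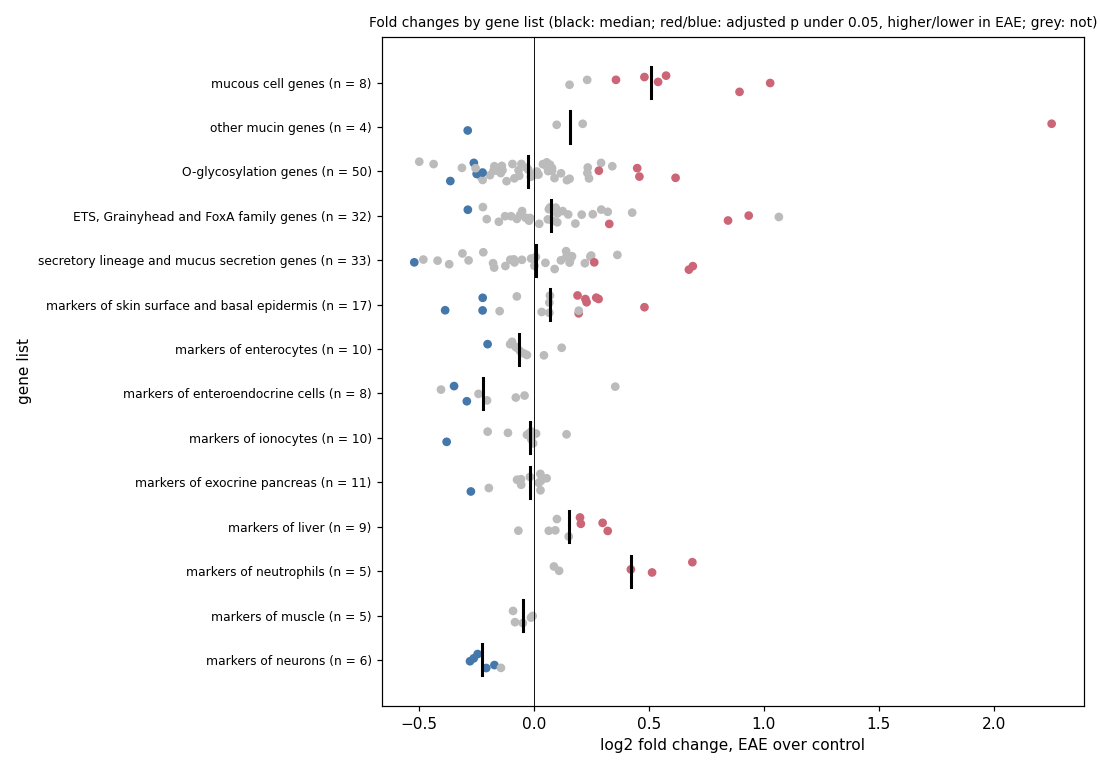
Log2 fold change of EAE over control (horizontal axis) for every tested gene of each list (rows), with a black line at the median and colour for genes called at an adjusted p-value under 0.05. The 8 mucous cell genes, chosen from this comparison, have a median of 0.51, while the O-glycosylation list has one of -0.03 with 4 genes called on each side in the main analysis.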

How the data were processed

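Poly-A selected RNA from 6 whole-larva pools was sequenced as single-end reads. The authors deposited raw counts per gene symbol for each pool, and their processing notes name STAR, DESeq2 and the genome build GRCz10. The counting program, annotation release and strand are not given in the sources used here. A row with no gene name (1.49% to 1.57% of counts) was left out, and 17 rows with names turned into dates were not named.

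Counts were tested with edgeR 4.0.16 in R 4.3.3 (filterByExpr, TMM, quasi-likelihood F test, Benjamini-Hochberg adjustment over 21617 genes), with the SE taken as the absolute log2 fold change divided by the square root of F. DESeq2 1.42.0, limma-voom (limma 3.58.1), RLE size factors, no filter, a replicate block, a threshold of 0.01 and the loss of each pool were alternatives. The edgeR fit was also run on simulated counts, with the same dispersion for every gene and changes only in genes with many reads. That run does not cover genes with few reads, and its outcome is not given here. With 3 against 3, the smallest two-sided exact permutation p is 0.1.

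No 2 pools of a group were alike within counting noise (chi-square per degree of freedom 3.56 to 5.07). The 8 genes and all lists were chosen with earlier results of these data known. Genes named are the 8, up to 4 called genes per list by size of change, the 2 most abundant markers per cell type, the nearest patterns and neighbours; others are marked as named after their values were seen. In the secretory list and among the ETS and FoxA genes, further uncalled genes were named after their values were seen. RefSeq symbols of GRCz12tu, which is not the authors' build, matched 7 of the 8 genes, and were used only for neighbours. No sequences were used here.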

Additional observations from a re-analysis of the deposited data

How the results depend on the processing

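No called gene of the lists changed sign in any fit, but the direction of calls changed in some lists. Without EAE replicate 3 the 1 ionocyte call was higher and not lower, and without EAE replicate 1 the secretory list held 2 higher and 2 lower calls in place of 3 and 1. The number of the 8 mucous cell genes called was 6 in the main analysis and 5 to 7 in the alternatives, and their median log2 fold change of 0.51 ranged from 0.42 to 0.61. The genes *agr2*, *ehf*, *elf3*, *muc5.1* and *grhl1* were called in all 11 alternative fits and *foxa3* in none. The number of genes called over the whole table was 3063, and it was 1846 with DESeq2, 1260 at an adjusted p-value under 0.01 and 1641 to 2996 with 1 pool left out. For the other mucin genes the count of 2 became 1 at the stricter threshold and 1 to 3 with 1 pool left out. For O-glycosylation the count of 8 became 4 with DESeq2, 4 at the stricter threshold and 5 to 8 with 1 pool left out. Its calls were all higher with DESeq2, at the stricter threshold and without control replicate 2, so the lower side was not stable. For the ETS, Grainyhead and FoxA families the count of 4 became 2 at the stricter threshold and 2 to 4 with 1 pool left out. For the secretory and mucus genes the count of 4 became 2 with DESeq2, 2 at the stricter threshold and 2 to 4 with 1 pool left out. At the stricter threshold no lower call was left in any of these lists. Fits without a pool used fewer samples; the cause of the other differences was not tested. The median r of within-group deviations was 0.40 with either prior count and 0.21 to 0.66 with 1 pool left out.

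Deviations of same-numbered pools had correlations of -0.01, -0.03 and -0.09 over the tested genes, so no sign of pairing by replicate number was seen. With deviations taken from the mean of only 3 pools, this cannot show that same-numbered pools were unrelated. With the replicate block, 2336 genes were called in all, 6 of the 8 mucous cell genes, 2 other mucin genes, 6 O-glycosylation genes, 3 family genes and 4 secretory genes. Depth limits genes with few reads in control pools, among them *muc5.2*, *muc2.2*, *klf4*, *etv7*, *atoh1a* and *atoh1b*.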
